A study of Homo sapiens with 24 samples.

Results

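Cells make cholesterol and fatty acids from acetyl-CoA, and 32 genes of these routes and of their control were followed in SW1783 cells, a human astrocytoma line, treated with extracts of Schisandrae Fructus (SF), the fruit of Schisandra chinensis. The 32 members were taken by gene symbol from the 60675 genes of the expression table: 18 genes of sterol synthesis, 6 genes that regulate the SREBP transcription factors or carry sterols, and 8 genes of fatty acid synthesis. All 32 passed the filter on low counts in every comparison. None was chosen by its measured values in the rule itself, but the list was drawn up with earlier results of these data known.

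RNA was sequenced from cells given hot water extract (WESF) at 20, 100 or 500 µg/mL, ethanol extract (EESF) at 12.4, 62 or 310 µg/mL, or vehicle for 24 h, with 3 libraries a group and 24 in all. Per the labels, WESF and vehicle A made up batch A, and EESF and vehicle B made up batch B, so extract and batch cannot be told apart in any comparison between extracts. Vehicle was PBS with 0.1% DMSO, and every culture was grown in medium with fetal bovine serum. In the paper's preliminary cytotoxicity screen, WESF was not toxic at 500 µg/mL. The high EESF dose of 310 µg/mL matched its IC20, a partly inhibitory concentration. All 8 groups were of 1 cell line, with no genetic change named in the labels, which also do not say whether the 3 libraries of a group came from separate cultures, so p-values measure the spread between these libraries, which may be technical. Total expected counts, the estimated reads per gene summed over a library, were 26447834 to 28461841 for vehicle A, 20731749 to 24692309 for WESF at 500 µg/mL, 18727797 to 20465712 for vehicle B and 29659110 to 32567395 for EESF at 310 µg/mL. Across the 4 lower dose groups they were 20713014 to 30288310. In bulk RNA, fewer cells that express a gene and less of its RNA per cell cannot be told apart.

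The label of the line was checked against its markers, as CPM (counts scaled to a library total of 1e+06 by the TMM method), the level used for single genes throughout. VIM was at 4876, 4780 and 4807 CPM, CD44 at 2707, 2890 and 2912 CPM and GJA1 at 201, 207 and 205 CPM in the vehicle A libraries. GFAP, S100B, AQP4, ALDH1L1, SLC1A2 and SOX2, which define astrocytes and neural progenitors, stayed under 1 CPM in all 24 libraries. The label was thus matched by 6 of 12 markers and not by the other 6, and the cells are called SW1783 here. Among 12 markers of other cell types the most abundant was COL1A1, a collagen chain of mesenchymal cells, at 3871, 3820 and 3702 CPM in vehicle A. AIF1, RBFOX3 and ALB stayed under 1 CPM in every library. By that cut only 4 of these 12 were below 1 CPM, fewer than the 6 of the astrocyte list. The cut therefore does not set the line apart from other cell types.

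Sterol synthesis runs from acetyl-CoA through mevalonate, isoprenoids and squalene to lanosterol, and from there through demethylation and reduction steps to cholesterol. Its genes and many of fatty acid synthesis are targets of the SREBP factors, encoded by SREBF1 and SREBF2, which SCAP escorts from the endoplasmic reticulum for cleavage when membrane sterol is low. INSIG1 and INSIG2 hold SCAP back when sterol is ample, and in glial cells the route supplies cholesterol and lipids to membranes.

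The letters of a sterol regulatory element (SRE), the short site that SREBP factors bind, were searched as CACNCCAC on both strands in RefSeq promoter windows of GRCh38.p14, which run from 250 bases before to 50 bases after a start. Windows were used for 28 members, 39 windows in all because some genes have several starts. ACAT2 and FASN had no entry among the RefSeq windows used, and the windows of FDFT1 and SQLE were not used here. The letters occurred in 7 of the 39 windows (17.9%), in IDI1, SC5D, INSIG1, SREBF2, ACACA and SCD, and in 5.87% of 35116 windows of all genes. The CCAAT letters, those of the NF-Y site, were in 25 of the 39 windows (64.1%) and in 34.6% of all windows. GGGCGG, a GC box, was in 35 (89.7%) against 45% of all windows, and the E-box CACGTG was in 5 (12.8%) against 7.26%, with both strands searched each time and overlaps between motifs allowed. A match describes these letters in this window and does not show binding. The windows below are the 5 that hold an SRE match among the members whose values are given per library, shown so that the matched letters can be read in their context. They lie at chr10:1048837-1049136 (minus strand), chr7:155297628-155297927 (plus), chr22:41832855-41833154 (plus), chr10:100346983-100347282 (plus) and chr17:37299718-37300017 (minus, 1 of several starts of the gene). Each runs 5′ to 3′ along the strand of its gene, and capitals mark the match, which starts at base -115, -208, -132, -114 and -224 from the start, respectively, either as searched or as its reverse complement.
IDI1: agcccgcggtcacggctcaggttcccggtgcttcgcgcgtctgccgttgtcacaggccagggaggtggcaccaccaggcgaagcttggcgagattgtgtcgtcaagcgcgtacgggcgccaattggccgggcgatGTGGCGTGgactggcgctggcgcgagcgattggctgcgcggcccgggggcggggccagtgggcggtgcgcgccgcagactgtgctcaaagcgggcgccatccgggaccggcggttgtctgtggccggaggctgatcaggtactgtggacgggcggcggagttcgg
INSIG1: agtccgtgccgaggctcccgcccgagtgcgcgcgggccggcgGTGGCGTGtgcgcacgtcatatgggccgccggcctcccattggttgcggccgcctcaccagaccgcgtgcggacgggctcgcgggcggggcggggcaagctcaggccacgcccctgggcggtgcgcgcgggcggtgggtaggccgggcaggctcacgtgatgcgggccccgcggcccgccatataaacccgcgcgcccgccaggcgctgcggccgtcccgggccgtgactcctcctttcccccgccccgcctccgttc
SREBF2: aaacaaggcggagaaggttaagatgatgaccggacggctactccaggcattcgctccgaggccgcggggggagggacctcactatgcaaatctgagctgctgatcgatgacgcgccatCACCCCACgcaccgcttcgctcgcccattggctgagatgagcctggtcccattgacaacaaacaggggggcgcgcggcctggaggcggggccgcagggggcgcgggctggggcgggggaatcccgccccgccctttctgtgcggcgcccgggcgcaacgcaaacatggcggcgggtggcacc
SCD: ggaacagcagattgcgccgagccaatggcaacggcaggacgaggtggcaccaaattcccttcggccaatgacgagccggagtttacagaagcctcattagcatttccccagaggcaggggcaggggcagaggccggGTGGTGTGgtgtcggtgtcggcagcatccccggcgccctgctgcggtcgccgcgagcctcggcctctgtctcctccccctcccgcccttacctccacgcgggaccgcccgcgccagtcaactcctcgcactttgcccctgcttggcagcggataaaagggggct
ACACA: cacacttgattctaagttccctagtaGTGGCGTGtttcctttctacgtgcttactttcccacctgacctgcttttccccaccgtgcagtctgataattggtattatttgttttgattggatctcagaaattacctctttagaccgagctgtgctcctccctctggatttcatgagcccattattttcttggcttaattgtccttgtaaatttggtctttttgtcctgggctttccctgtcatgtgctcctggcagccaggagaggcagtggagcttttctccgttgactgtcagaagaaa

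With vehicle the members spanned more than 2 orders of magnitude in level per length. On the scale of CPM per kb of annotated exon, ACLY, which makes cytosolic acetyl-CoA from citrate, was highest at 91.7 in vehicle A and 88.5 in vehicle B. SCD, the stearoyl-CoA desaturase, followed at 50.4 and 52.1, then INSIG1 at 37.3 and 37.5, and FASN, the fatty acid synthase, at 35.2 and 35.2. At the other end were MVK (1.34 and 1.42), HSD17B7 (0.991 and 0.979) and TM7SF2 (0.216 and 0.291 CPM per kb). The 5 highest and the 3 lowest members were the same in both vehicles, and these levels depend on the exon length the annotation gives. Between vehicle B and vehicle A, edgeR called 0 of 32 members and 0% of 13001 genes at an adjusted p under 0.05, the threshold used for every call. No member and 371 genes had an unadjusted p under 0.05, and DESeq2 called 0 members.

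**Figure D1:**
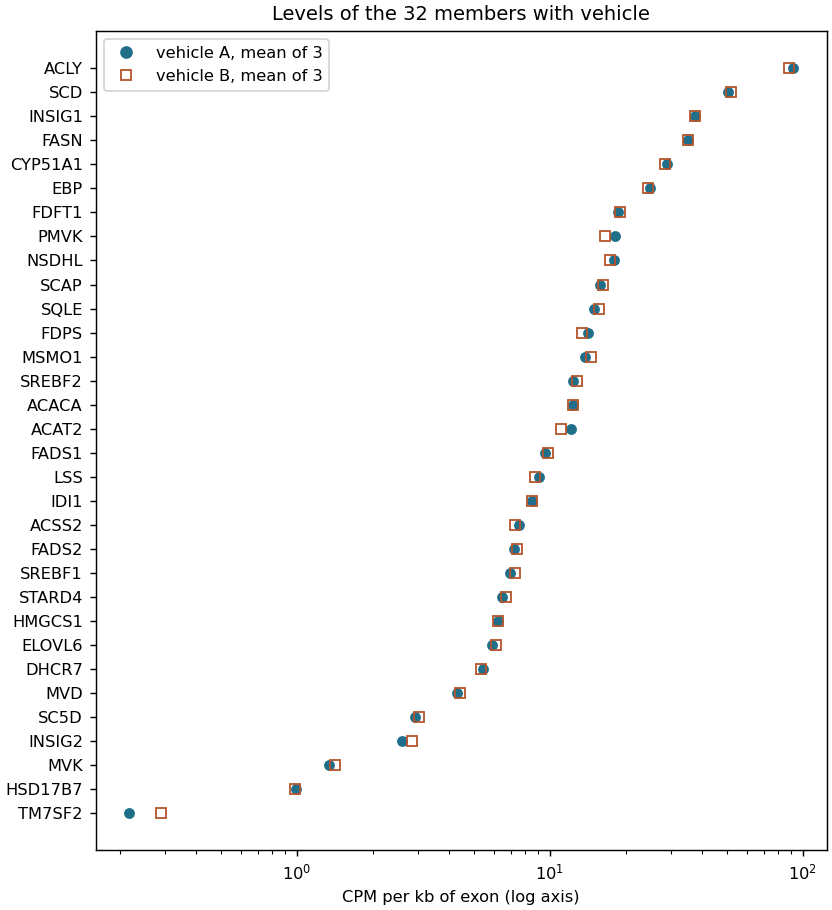
Mean level of each of the 32 members in vehicle A (filled circles) and vehicle B (open squares), in CPM per kb of annotated exon on a log axis, 3 libraries each. ACLY, SCD, INSIG1 and FASN lie at the top, and the low gene TM7SF2 lies furthest apart between the vehicles.

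At 500 µg/mL of WESF the members moved in both directions. The largest rises were in SQLE, FDFT1 and MVD, the largest falls in LSS and SREBF1. In all, 10 members were called higher, 11 lower and 11 neither, that is 31.2% and 34.4% of the members against 34.3% and 34.6% of the 13129 genes tested, so the shares lay near the background. Of these, 3 rose and 2 fell with a fold change over 1.5, where the background was 11.1% and 13%. By role, 5 of 18 sterol genes were higher and 4 lower, 3 of 6 regulators were higher and 2 lower, and 2 of 8 fatty acid genes were higher and 5 lower. The median log2 fold change was 0.059 over the members and 8.0e-04 over all genes. Summed over the 18 sterol genes, the level went from 748 ± 13 CPM in vehicle A to 854 ± 9.9 CPM (SD, n = 3), and over the 8 fatty acid genes from 1487 ± 45 to 1438 ± 31 CPM.

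At 310 µg/mL of EESF falls outnumbered rises among the members. LSS, FADS2 and ACACA fell most, and MVD and FDFT1 rose most. Here 4 members were called higher, 16 lower and 12 neither, that is 12.5% and 50% of the members against 29.3% and 28.7% of 13092 genes. With a fold change over 1.5, 0 rose and 3 fell, beside 8.21% and 9.17% of all genes, and the median log2 fold change was -0.16 over the members and 0.0070 over all genes. By role, 3 of 18 sterol genes were higher and 6 lower, 0 of 6 regulators were higher and 4 lower, and 1 of 8 fatty acid genes was higher and 6 lower. The 18 sterol genes summed to 745 ± 13 CPM in vehicle B and 728 ± 18 CPM (SD, n = 3) with EESF, and the 8 fatty acid genes to 1485 ± 35 and 1262 ± 48 CPM.

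**Figure D2:**
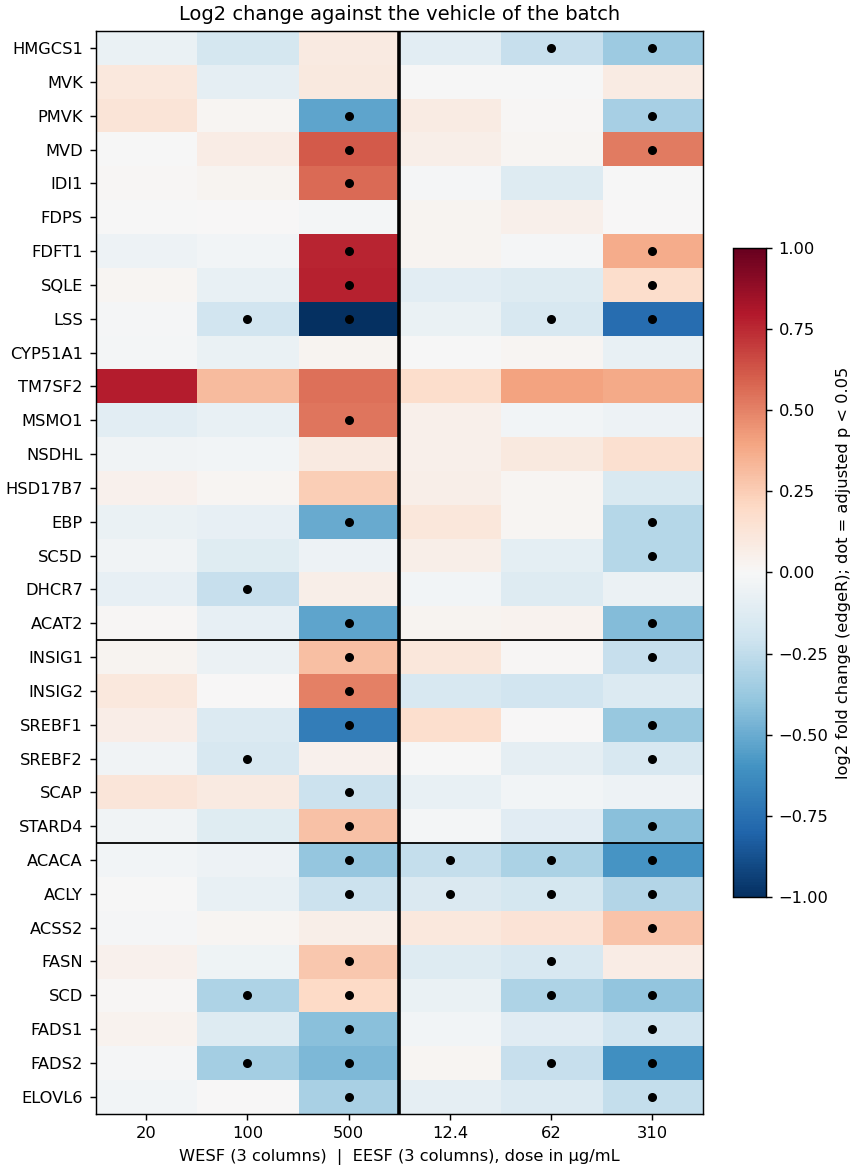
Log2 fold change of each member (vertical) at each dose in µg/mL (horizontal) against the vehicle of its batch, WESF left and EESF right of the thick line. Thin lines part sterol synthesis, regulators and fatty acid synthesis, and dots mark an adjusted p under 0.05 in edgeR; most dots lie at the high doses, and TM7SF2, at 0.516 to 1.69 CPM, carries none.

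The 32 members fell into groups by their calls at both high doses. With both extracts 10 were lower (PMVK, LSS, EBP, ACAT2, SREBF1, ACACA, ACLY, FADS1, FADS2 and ELOVL6) and 3 were higher (MVD, FDFT1 and SQLE), that is 31.2% and 9.38% of the members against 23% and 22.5% of the 13002 genes tested with both. A further 3 (INSIG1, STARD4 and SCD) were higher with WESF and lower with EESF (9.38% against 0.915%). With WESF alone 4 were called higher (IDI1, MSMO1, INSIG2 and FASN) and 1 lower (SCAP), beside 10.9% and 11% of all genes, and with EESF alone 1 was called higher (ACSS2) and 3 lower (HMGCS1, SC5D and SREBF2), beside 6.24% and 4.76%. The other 7 (MVK, FDPS, CYP51A1, TM7SF2, NSDHL, HSD17B7 and DHCR7) were called with neither (21.9% against 20%). A call with only 1 extract does not show a difference between extracts, which was tested for itself as the log2 response to EESF minus that to WESF in a fit of 12 libraries.

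In that test of the high doses, 4 members responded more positively to EESF (LSS, SREBF1, ACSS2 and FADS1) and 10 more negatively (STARD4, INSIG2, SCD, SQLE, MSMO1, IDI1, INSIG1, HMGCS1, FDFT1 and SREBF2). That is 12.5% and 31.2% of the members against a background of 12.7% and 13.3% of 13376 genes. Of the 10, the difference was beyond 1.5-fold for STARD4, INSIG2, SCD and SQLE, beside 1.75% of all genes, and for none of the 4, beside 2.13%. The doses of the extracts differed (500 and 310 µg/mL), so the differences are between these treatments and not between equal amounts of extract. By the paper's cytotoxicity screen only the EESF dose was partly inhibitory, and the part of toxicity in the differences was not tested. The count of 4 fell to 2 without vehicle A replicate 2, WESF high replicate 2, WESF high replicate 3 or vehicle B replicate 2, and to 1 without vehicle B replicate 3.

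**Figure D3:**
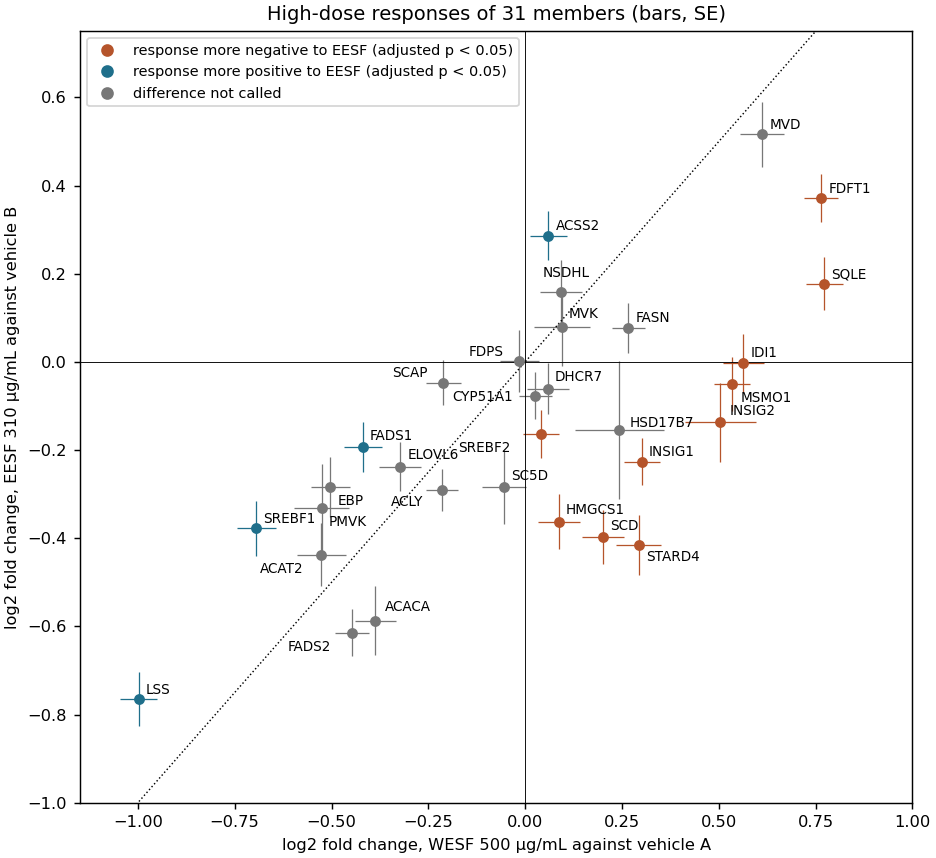
Log2 fold change at 500 µg/mL of WESF (horizontal) and at 310 µg/mL of EESF (vertical), each against its vehicle, for 31 members (TM7SF2, with a wide error, is left out), with bars of 1 SE and a dotted line of equal response. Members coloured as responding more negatively to EESF than to WESF, such as SQLE, IDI1, MSMO1, INSIG1, STARD4 and SCD, lie below the line, and LSS, SREBF1, FADS1 and ACSS2 lie above it.

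The first enzymes of the route, which build mevalonate from acetyl-CoA, did not move together. HMGCS1, the cytosolic HMG-CoA synthase (ENSG00000112972, chr5:43287470-43313512, minus strand), was at 42.0, 43.5 and 38.2 CPM in vehicle A and at 44.4, 44.2 and 42.9 CPM with WESF at 500 µg/mL. It was at 40.6, 42.9 and 40.6 CPM in vehicle B and at 32.8, 30.2 and 33.6 CPM with EESF at 310 µg/mL. The 3 EESF libraries lay below every vehicle B library, while the WESF and vehicle A libraries overlapped. HMGCS1 fell with EESF (log2 fold change -0.36, SE 0.062, edgeR adjusted p = 3.08e-04), was not called with WESF (log2 fold change 0.087, SE 0.054, edgeR adjusted p = 0.169), and differed between the responses by -0.45 (SE 0.082, edgeR adjusted p = 0.00126). ACAT2, the cytosolic acetoacetyl-CoA thiolase, fell from 32 ± 1.5 to 22.3 ± 1.5 CPM with WESF and from 29.3 ± 1.9 to 21.6 ± 1.3 CPM with EESF (SD, n = 3), and the responses differed by 0.09 (95% interval -0.11 to 0.29).

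MVK, PMVK and MVD turn mevalonate into isopentenyl diphosphate in 3 successive steps, and here neighbours in the route went different ways. PMVK, the phosphomevalonate kinase, fell with both extracts, from 18.1 ± 1.2 to 12.6 ± 0.29 CPM with WESF and from 16.6 ± 2.2 to 13.2 ± 1.1 CPM with EESF; the latter call was lost without vehicle B replicate 1 (adjusted p = 0.0602 in edgeR). MVK, the mevalonate kinase, lay at 12.1 ± 0.15 and 12.9 ± 0.42 CPM in batch A and was called with neither extract.

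MVD, the mevalonate decarboxylase (ENSG00000167508, chr16:88651935-88663161, minus strand), was at 20.6, 20.5 and 19.5 CPM in vehicle A and at 30.6, 31.1 and 30.8 CPM with WESF. In batch B it was at 21.1, 19.5 and 21.5 CPM with vehicle and at 27.1, 30.8 and 30.9 CPM with EESF. All 6 high dose libraries lay above all 6 vehicle libraries, and the responses were 0.61 (edgeR adjusted p = 4.26e-08) and 0.52 (edgeR adjusted p = 7.62e-05) on the log2 scale. Their difference was -0.093 (95% interval -0.28 to 0.092).

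IDI1, FDPS, FDFT1 and SQLE carry the isoprenoid units to squalene and its epoxide. IDI1, the isopentenyl diphosphate isomerase (ENSG00000067064, chr10:1039152-1049119, minus strand), was at 35.8, 38.1 and 35.1 CPM in vehicle A and at 51.2, 54.4 and 55.5 CPM with WESF. It was at 35.8, 39.7 and 33.7 CPM in vehicle B and at 36.9, 36.0 and 36.4 CPM with EESF. The WESF libraries lay above every other library shown, and the EESF libraries lay within the range of vehicle B. IDI1 rose with WESF (log2 fold change 0.56, SE 0.053, edgeR adjusted p = 6.16e-08), the response to EESF was -0.0018 (95% interval -0.15 to 0.14), and the difference was -0.56 (SE 0.084, edgeR adjusted p = 2.82e-04). FDPS, the farnesyl diphosphate synthase next in the route, did not follow: it was at 52.4 ± 2.7 and 51.9 ± 1.5 CPM in batch A and at 49.9 ± 2.2 and 49.9 ± 4.4 CPM in batch B, with log2 intervals of -0.12 to 0.091 and -0.15 to 0.15.

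FDFT1 makes squalene and so commits farnesyl diphosphate to sterols. FDFT1 (ENSG00000079459) was at 96.7, 95.3 and 90.9 CPM in vehicle A and at 161, 156 and 163 CPM with WESF. In batch B it was at 98.9, 98.3 and 91.3 CPM with vehicle and at 128, 119 and 126 CPM with EESF. Both treated groups lay wholly above their vehicle, and the WESF libraries wholly above the EESF libraries. The rise was larger with WESF (log2 fold change 0.76, SE 0.044, edgeR adjusted p = 1.45e-10) than with EESF (log2 fold change 0.37, SE 0.054, edgeR adjusted p = 9.33e-05), by a difference of -0.39 (SE 0.067, edgeR adjusted p = 7.93e-04).

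SQLE, the squalene epoxidase and a rate-limiting enzyme of the later route (ENSG00000104549), was at 63.7, 65.4 and 63.7 CPM in vehicle A and at 105, 117 and 108 CPM with WESF, the largest rise of a called member at that dose. It was at 66.4, 67.1 and 69.0 CPM in vehicle B and at 82.6, 73.8 and 72.6 CPM with EESF. The EESF libraries lay above every vehicle library but below every WESF library at the high dose. The rise was 0.77 (edgeR adjusted p = 4.12e-10) with WESF and 0.18 (edgeR adjusted p = 0.0231) with EESF on the log2 scale, and they differed by -0.59 (SE 0.077, edgeR adjusted p = 1.06e-04). The EESF call was lost in 4 of 13 alternatives, with adjusted p between 0.0102 and 0.0934 over the 13. The 4 were the fits without vehicle B replicate 1 (0.0746), vehicle B replicate 2 (0.0934) or EESF high replicate 1 (0.0673) and the fit with the replicate block (0.0628).

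**Figure D4:**
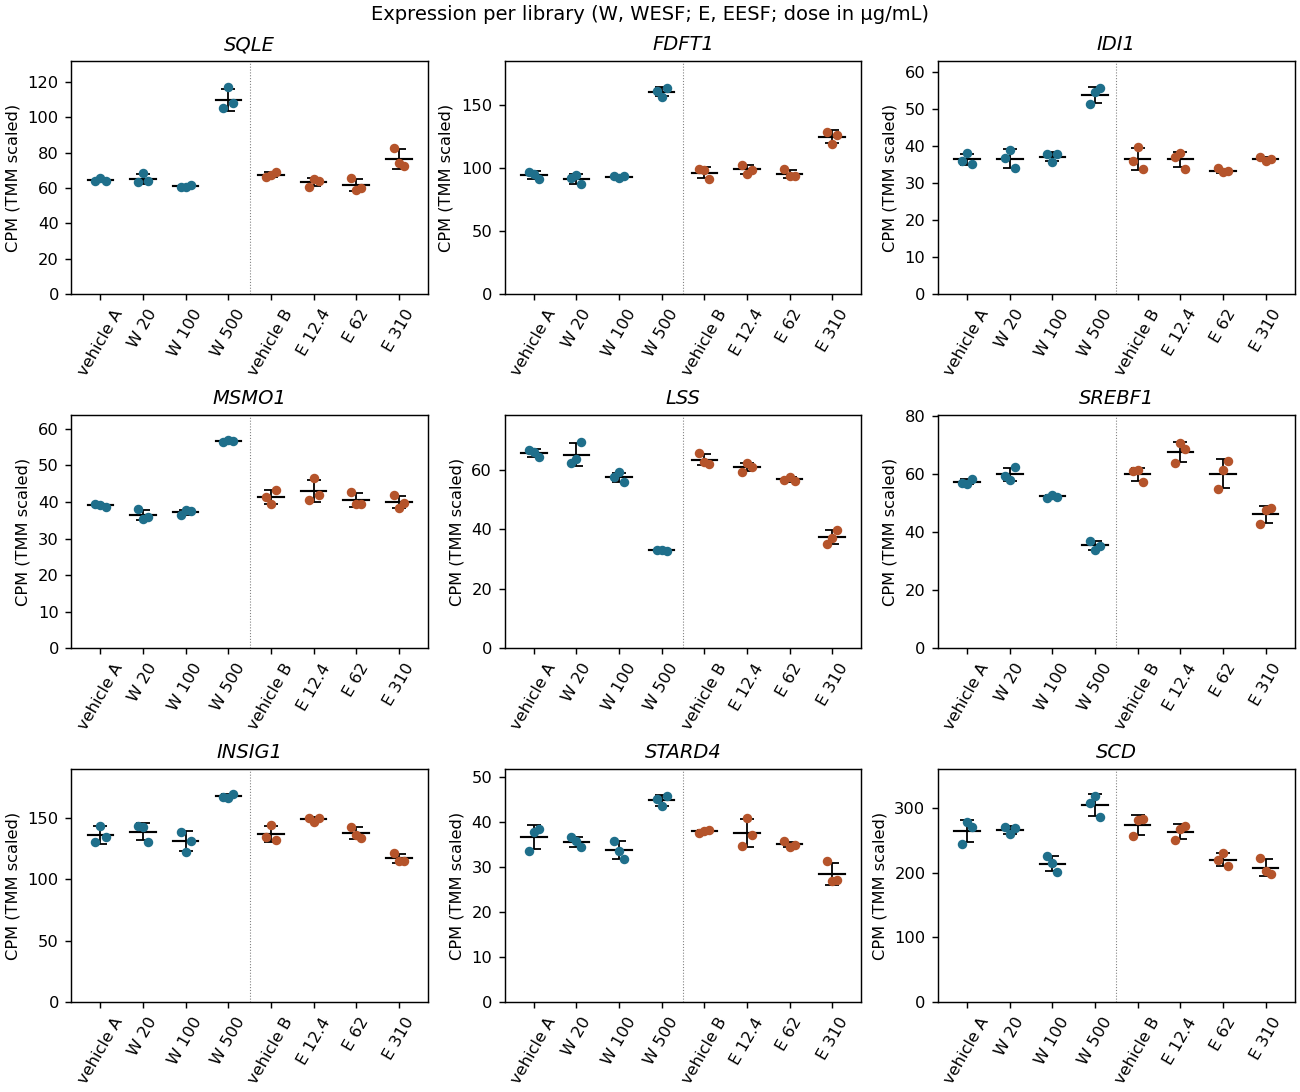
Level of 9 members in each of the 24 libraries (points) in TMM-scaled CPM, with the mean and SD of the 3 libraries of a group, batch A left and batch B right of the dotted line. SQLE, FDFT1, IDI1 and MSMO1 stand highest at 500 µg/mL of WESF, LSS and SREBF1 stand lowest at the high dose of each extract within its batch, and INSIG1, STARD4 and SCD lie above vehicle at that WESF dose and below it at 310 µg/mL of EESF.

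LSS, which closes squalene epoxide into lanosterol, stands directly after SQLE in the route and went the other way. LSS (ENSG00000160285, chr21:46188141-46228824, minus strand) was at 66.6, 66.1 and 64.2 CPM in vehicle A and at 33.0, 32.9 and 32.8 CPM with WESF at 500 µg/mL. It was at 65.5, 62.7 and 62.0 CPM in vehicle B and at 35.1, 37.1 and 39.8 CPM with EESF at 310 µg/mL. The 6 high dose libraries lay below all 6 vehicle libraries without overlap. LSS showed the largest fall of any member with either extract, to 0.501 of the vehicle level with WESF (log2 fold change -0.998, SE 0.047, edgeR adjusted p = 1.22e-11) and to 0.589 with EESF (log2 fold change -0.77, SE 0.061, edgeR adjusted p = 7.53e-07). The difference of 0.24 (SE 0.071, edgeR adjusted p = 0.0231) did not pass the threshold in 7 of 20 alternatives, where adjusted p ranged from 0.00556 to 0.0778. Those 7 were the replicate block and the fits without vehicle A replicate 2, WESF high replicate 2 or 3, vehicle B replicate 2 or 3, or EESF high replicate 3.

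Of the enzymes after lanosterol, MSMO1 passed the test of the difference between extracts. MSMO1, the sterol methyl oxidase (ENSG00000052802, chr4:165327667-165343164, plus strand), was at 39.4, 39.2 and 38.8 CPM in vehicle A and at 56.5, 56.8 and 56.8 CPM with WESF. It was at 41.3, 39.4 and 43.3 CPM in vehicle B and at 41.9, 38.4 and 39.7 CPM with EESF. The WESF libraries stood apart above all others, and EESF and vehicle B overlapped. MSMO1 rose with WESF (log2 fold change 0.53, SE 0.046, edgeR adjusted p = 2.14e-08) and its response to EESF was -0.05 (95% interval -0.18 to 0.083), a difference of -0.58 (SE 0.069, edgeR adjusted p = 5.87e-05). EBP, the sterol isomerase, fell with both, from 44.1 ± 1.3 to 31.1 ± 0.34 CPM and from 43.2 ± 3.0 to 35.5 ± 2.2 CPM. SC5D, the sterol desaturase, fell with EESF from 30.6 ± 2.1 to 25.1 ± 2.7 CPM, a call lost without vehicle B replicate 2 (adjusted p = 0.0594 in edgeR) or EESF high replicate 2 (0.0538); the difference between extracts was -0.23 (edgeR adjusted p = 0.112).

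The other enzymes after lanosterol passed no test at the high doses. CYP51A1, the lanosterol demethylase, was at 121 ± 1.5 and 123 ± 4.0 CPM in batch A and at 119 ± 2.8 and 113 ± 5.1 CPM in batch B. NSDHL, which acts with MSMO1 in demethylation, lay between 30.9 and 39.6 CPM over these 4 groups. DHCR7, a reductase of the last steps, was at 37.5 ± 1.2 and 39.1 ± 2.1 CPM in batch A and at 36.6 ± 0.90 and 35.1 ± 0.99 CPM in batch B. HSD17B7, the keto-reductase of the demethylation complex, and TM7SF2, a sterol reductase, were low, at 4.74 ± 0.18 and 0.738 ± 0.23 CPM in vehicle A. Their intervals were wide: with WESF -0.0006 to 0.49 and -0.018 to 1.119 on the log2 scale, so changes within them could not be told from 0 at this depth.

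Among the regulators, the RNA levels of the genes of the retention proteins responded differently to the extracts. INSIG1 (ENSG00000186480, chr7:155297776-155310235, plus strand), itself an SREBP target, was at 130, 144 and 134 CPM in vehicle A and at 167, 166 and 169.6 CPM with WESF. It was at 135, 144 and 132 CPM in vehicle B and at 121, 115 and 115 CPM with EESF. The WESF libraries lay above all vehicle libraries and the EESF libraries below them. The log2 fold changes were 0.30 (edgeR adjusted p = 2.02e-05) and -0.23 (edgeR adjusted p = 0.00281), opposite in direction, with a difference of -0.53 (SE 0.069, edgeR adjusted p = 1.10e-04).

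INSIG2 (ENSG00000125629, chr2:118088452-118110997, plus strand), its paralogue, was lower in level, at 9.18, 11.5 and 10.3 CPM in vehicle A and 13.4, 14.7 and 15.8 CPM with WESF. It was at 11.6, 11.6 and 10.6 CPM in vehicle B and at 11.2, 9.33 and 10.3 CPM with EESF. The WESF libraries lay above the vehicle A libraries, whereas EESF and vehicle B overlapped. INSIG2 rose with WESF (log2 fold change 0.50, SE 0.091, edgeR adjusted p = 1.11e-04), its response to EESF was -0.14 (95% interval -0.33 to 0.057), and the difference was -0.64 (SE 0.13, edgeR adjusted p = 0.00300).

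The genes of the SREBP factors were both called lower with EESF, and SREBF1 also with WESF. SREBF1, whose products drive fatty acid synthesis foremost (ENSG00000072310, chr17:17810399-17837002, minus strand), was at 57.0, 56.7 and 58.2 CPM in vehicle A and at 37.0, 33.9 and 35.3 CPM with WESF. It was at 61.0, 61.5 and 57.4 CPM in vehicle B and at 42.8, 47.5 and 48.2 CPM with EESF. Both treated groups lay below their vehicle without overlap, and the WESF libraries below the EESF libraries. SREBF1 fell with WESF (log2 fold change -0.69, SE 0.050, edgeR adjusted p = 2.42e-09) and with EESF (log2 fold change -0.38, SE 0.062, edgeR adjusted p = 2.36e-04), and the responses differed by 0.32 (SE 0.077, edgeR adjusted p = 0.00694), a call lost with the low doses in place of the vehicles (adjusted p = 0.0846). The annotated bounds of the gene overlap those of RAI1, and the strand setting of the counting is not given in the sources used here.

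SREBF2, whose product drives sterol synthesis foremost (ENSG00000198911, chr22:41833105-41907306, plus strand), was at 101, 96.3 and 102 CPM in vehicle A and at 107, 98.2 and 102 CPM with WESF. It was at 105, 99.3 and 104 CPM in vehicle B and at 94.6, 93.9 and 86.4 CPM with EESF. The WESF and vehicle A libraries overlapped, and the EESF libraries lay just below those of vehicle B. The response was 0.041 (95% interval -0.059 to 0.14) to WESF and -0.16 (edgeR adjusted p = 0.0217) to EESF. The EESF call was lost in 4 of 13 alternatives (adjusted p 0.00897 to 0.0882 over the 13), and these 4 were without vehicle B replicate 1 (0.0517), vehicle B replicate 3 (0.0581) or EESF high replicate 3 (0.0882) and with the replicate block (0.0649). The difference, -0.20 (SE 0.070, edgeR adjusted p = 0.0424), was lost in 10 of 20 (0.0195 to 0.111), among them without replicate 1 or 2 of vehicle A, 1 or 3 of WESF high, 1 or 3 of vehicle B, or 3 of EESF high.

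SCAP, the escort protein, fell with WESF from 99.1 ± 2.7 to 85.6 ± 2.8 CPM (edgeR adjusted p = 5.13e-04). With EESF it was at 98.3 ± 3.7 CPM beside 102 ± 0.62 CPM in vehicle B, and the difference between responses was 0.17 (edgeR adjusted p = 0.0589). STARD4, a cytosolic sterol transfer protein (ENSG00000164211, chr5:111496033-111512590, minus strand), showed the largest difference between the extracts of all members. It was at 33.6, 37.8 and 38.6 CPM in vehicle A and at 45.1, 43.6 and 46.0 CPM with WESF. It was at 37.7, 38.1 and 38.3 CPM in vehicle B and at 31.5, 27.0 and 27.1 CPM with EESF. As with INSIG1, the WESF libraries lay above every vehicle library and the EESF libraries below. STARD4 rose with WESF (log2 fold change 0.29, SE 0.058, edgeR adjusted p = 2.71e-04), fell with EESF (log2 fold change -0.42, SE 0.069, edgeR adjusted p = 2.39e-04) and differed by -0.71 (SE 0.092, edgeR adjusted p = 1.10e-04).

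Of the enzymes that supply acetyl-CoA, ACLY fell with both extracts, from 477 ± 5.3 to 412 ± 4.0 CPM with WESF and from 461 ± 3.6 to 377 ± 8.7 CPM with EESF. The responses to the extracts differed by -0.074 (95% interval -0.19 to 0.038). ACSS2, which makes acetyl-CoA from acetate (ENSG00000131069, chr20:34872146-34927962, plus strand), was at 40.2, 39.7 and 39.3 CPM in vehicle A and at 42.2, 41.5 and 40.7 CPM with WESF. It was at 37.7, 39.8 and 37.5 CPM in vehicle B and at 45.5, 47.2 and 47.5 CPM with EESF. Each treated group lay above its vehicle, by a wider margin with EESF. ACSS2 was the only fatty acid synthesis gene called higher with EESF (log2 fold change 0.29, SE 0.056, edgeR adjusted p = 8.82e-04), and its response differed from that to WESF by 0.23 (SE 0.065, edgeR adjusted p = 0.0170), a call lost without vehicle B replicate 3 (adjusted p = 0.0521 in edgeR), with the replicate block (0.0555) and with the low doses in place of the vehicles (0.331).

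ACACA, the acetyl-CoA carboxylase that commits acetyl-CoA to fatty acids (ENSG00000278540, chr17:37084992-37406836, minus strand), was at 149, 160.4 and 172 CPM in vehicle A and at 128, 121 and 119 CPM with WESF. It was at 150.2, 160.4 and 171 CPM in vehicle B and at 119.6, 106 and 95.2 CPM with EESF. Both treated groups lay below their vehicle without overlap. The log2 fold change was -0.39 (edgeR adjusted p = 6.31e-06) with WESF and -0.59 (edgeR adjusted p = 4.28e-05) with EESF, and the difference was -0.20 (95% interval -0.42 to 0.021). FASN, which builds palmitate from the product of ACACA, rose with WESF from 328 ± 9.3 to 394 ± 8.3 CPM (edgeR adjusted p = 3.06e-05). With EESF it was at 346 ± 20.3 CPM beside 328 ± 12 CPM in vehicle B, and the difference of -0.19 did not pass the test (edgeR adjusted p = 0.0513).

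The desaturases and the elongase act on the finished chain. SCD (ENSG00000099194, chr10:100347233-100364826, plus strand) was at 244, 278 and 270.4 CPM in vehicle A and at 307, 319 and 286 CPM with WESF. It was at 257, 281 and 283 CPM in vehicle B and at 223, 202 and 198 CPM with EESF. The WESF libraries lay above every vehicle library and the EESF libraries below. SCD rose with WESF (log2 fold change 0.20, SE 0.054, edgeR adjusted p = 0.00330), fell with EESF (log2 fold change -0.40, SE 0.061, edgeR adjusted p = 1.36e-04) and differed by -0.60 (SE 0.088, edgeR adjusted p = 2.58e-04).

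FADS1 and FADS2 desaturate polyunsaturated chains and lie side by side on chromosome 11, where their annotated bounds overlap. FADS2 (ENSG00000134824, chr11:61792980-61867354, plus strand) was at 76.1, 75.7 and 76.7 CPM in vehicle A and at 56.0, 55.3 and 56.4 CPM with WESF. It was at 76.5, 80.8 and 77.4 CPM in vehicle B and at 52.5, 51.0 and 49.8 CPM with EESF. The high dose libraries of both extracts lay below all vehicle libraries. FADS2 fell with WESF (log2 fold change -0.45, SE 0.044, edgeR adjusted p = 1.09e-07) and with EESF (log2 fold change -0.61, SE 0.053, edgeR adjusted p = 1.38e-06), and the difference was -0.17 (edgeR adjusted p = 0.0513).

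FADS1 (ENSG00000149485, chr11:61799627-61829318, minus strand) was at 93.3, 97.5 and 104 CPM in vehicle A and at 75.3, 73.3 and 71.6 CPM with WESF. It was at 98.1, 103 and 102 CPM in vehicle B and at 92.8, 89.8 and 82.1 CPM with EESF. It too was lower in all high dose libraries than in the vehicle libraries of the same batch, with a smaller margin for EESF, whose call was lost without EESF high replicate 3 (adjusted p = 0.0529 in edgeR). The difference, 0.23 (SE 0.075, edgeR adjusted p = 0.0344), was lost in 10 of 20 alternatives (0.0135 to 0.0951), among them without replicate 2 or 3 of vehicle A, 2 or 3 of WESF high, any replicate of vehicle B, or 1 or 2 of EESF high. ELOVL6, which lengthens palmitate, fell from 43.1 ± 2.1 to 34.5 ± 0.94 CPM with WESF and from 44.5 ± 0.62 to 37.7 ± 1.4 CPM with EESF, with a difference of 0.086 (95% interval -0.065 to 0.24).

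At the medium doses only falls were called. With 100 µg/mL of WESF, LSS, DHCR7, SREBF2, SCD and FADS2 were called lower, 5 of 32 members beside 4.1% of 13112 genes in either direction. With the replicate block only 2 of these calls (SCD and FADS2) passed. The calls of LSS, DHCR7 and SREBF2 were lost in 5, 4 and 7 of 13 alternatives. With 62 µg/mL of EESF, HMGCS1, LSS, ACACA, ACLY, FASN, SCD and FADS2 were called lower, 7 of 32 beside 15.4% of 12978 genes. Each dose of an extract was compared with the same vehicle libraries, so the calls at different doses are not independent. SCD went below vehicle at 100 µg/mL of WESF (226, 215 and 201 CPM) and above it at 500 µg/mL, while with EESF it was at 219, 230.4 and 210.2 CPM at 62 µg/mL, a range that overlaps that at 310 µg/mL. The log2 fold change of SCD was -0.31 (edgeR adjusted p = 0.00842) at the medium dose of WESF and -0.31 (edgeR adjusted p = 0.00129) at that of EESF. The WESF call was lost without vehicle A replicate 2 (adjusted p = 0.0688 in edgeR), WESF medium replicate 2 (0.0517) or WESF medium replicate 3 (0.0787). FADS2 was at 60.5, 63.3 and 57.2 CPM with 100 µg/mL of WESF and at 64.2, 66.9 and 68.4 CPM with 62 µg/mL of EESF, below its vehicle in every library. LSS, at 57.5 ± 1.5 and 56.7 ± 0.73 CPM, lay between its vehicle and high dose levels with both extracts.

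These counts moved when single libraries were left out. The 5 calls for WESF became 1 without vehicle A replicate 2, WESF medium replicate 2 or WESF medium replicate 3, and 3 without WESF medium replicate 1. The 7 calls for EESF became 3 without vehicle B replicate 2 and 4 without EESF medium replicate 3. Of the members with rises at the high dose of WESF, SQLE was at 60.8, 60.8 and 61.8 CPM, FDFT1 at 93.6, 91.9 and 93.3 CPM and IDI1 at 37.7, 35.6 and 37.8 CPM with 100 µg/mL, none of them called.

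At the low dose of EESF, 12.4 µg/mL, ACACA and ACLY were called lower, 2 of 32 members beside 9.35% of 12892 genes. ACACA was at 131, 137 and 143 CPM (log2 fold change -0.24, edgeR adjusted p = 0.0137) and ACLY at 418, 418 and 418 CPM (-0.15, edgeR adjusted p = 0.0214). ACLY and ACACA were below vehicle B in every library at all 3 EESF doses. Neither was called without vehicle B replicate 2 or EESF low replicate 1 or 2, and 1 was without vehicle B replicate 3 or EESF low replicate 3. With 20 µg/mL of WESF edgeR called 0 members and 0% of 13131 genes, where 1 member and 470 genes had an unadjusted p under 0.05, and DESeq2 called 0 members.

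Between the extracts, edgeR called 0 members at the medium doses, beside 0.203% of 13276 genes, and 0 at the low doses, beside 0.00756% of 13221 genes. At an unadjusted p under 0.05 there were 2 and 5 members, beside 13.1% and 10.5% of all genes, and DESeq2 called 1 and 0.

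Other genes of the pathway, outside the 32, were counted from lists by role. Of 12 genes that process SREBP or control the breakdown of sterol enzymes, 2 were higher and 7 lower with WESF at 500 µg/mL, and 0 were higher and 7 lower with EESF at 310 µg/mL. For these counts and those of the lists that follow, the background over all genes was 34.3% higher and 34.6% lower with WESF and 29.3% and 28.7% with EESF. TMEM97, a sterol-binding receptor, fell with both extracts (log2 fold changes -0.65 with WESF and -0.19 with EESF), and the responses differed by 0.46 (SE 0.091, edgeR adjusted p = 0.00211). RNF145, a ubiquitin ligase of the sterol route, also fell with both (-0.54 and -0.65), with a difference that was not called (edgeR adjusted p = 0.156). Of 13 genes tested of 16 for sterol export, storage and trafficking, 7 were higher and 4 lower with WESF and 8 and 3 with EESF. GRAMD1A, which moves cholesterol from the plasma membrane to the endoplasmic reticulum, rose with both (0.89 with WESF and 0.69 with EESF on the log2 scale). CYP27A1, the sterol hydroxylase of mitochondria, did so too (0.92 and 1.15). OSBP, an oxysterol-binding transfer protein, rose with both (0.82 and 0.38), less with EESF (difference -0.45, edgeR adjusted p = 3.36e-04). SOAT1, which esterifies cholesterol, fell with both (-0.69 and -0.52), and NR1H3, the oxysterol receptor LXR alpha, rose with both (0.63 and 0.81), with differences that were not called (edgeR adjusted p = 0.157 and 0.551). MYLIP, a ubiquitin ligase for lipoprotein receptors, fell with WESF (-0.77), was not called with EESF (-0.20, edgeR adjusted p = 0.0968) and differed by 0.58 (edgeR adjusted p = 0.00562). At the low dose of EESF, however, MYLIP was called higher than vehicle B (0.48, edgeR adjusted p = 0.00392).

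Of 9 genes on branches that use isoprenoids for other products, 6 were higher and 2 lower with WESF and 5 and 0 with EESF. FNTA, a subunit of the prenyltransferases, rose with both extracts (0.63 with WESF and 0.53 with EESF on the log2 scale), as did DHDDS, of dolichol synthesis (0.62 and 0.49). Of 29 tested among 30 further fatty acid and glycerolipid genes, 10 were higher and 13 lower with WESF and 8 and 10 with EESF. ACACB, the mitochondrial acetyl-CoA carboxylase, fell with both extracts (-1.58 and -1.48), as did SCD5, a paralogue of SCD (-1.26 and -1.01). The 29 include MLXIPL, the carbohydrate-responsive factor ChREBP, which passed the filter on low counts only in comparisons that hold the high doses, where it was high, so no fold change is given; it was at 0.147, 0.217 and 0.0779 CPM in vehicle A, 1.14, 1.23 and 0.832 CPM with WESF, 0.412, 0.153 and 0.223 CPM in vehicle B and 0.848, 0.895 and 1.16 CPM with EESF. LPIN2, a phosphatidate phosphatase, rose with both extracts (0.82 and 0.27), less with EESF (difference -0.55, edgeR adjusted p = 1.53e-04). Its paralogue LPIN1 fell with both (-0.72 and -0.62), with a difference that was not called (edgeR adjusted p = 0.317). HACD1, a dehydratase of chain elongation, fell with both (-0.84 and -0.40), less with EESF (difference 0.44, edgeR adjusted p = 0.00505). FADS3, a paralogue of FADS1 and FADS2, rose with both (0.25 and 0.74), more with EESF (difference 0.49, edgeR adjusted p = 0.00349). Between the extracts at the high doses, 1 gene of the 12, 1 of the 13, 2 of the 9 and 6 of the 29 responded more positively to EESF, and 1, 2, 1 and 5 more negatively, beside 12.7% and 13.3% of all genes.

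Measures other than the members moved with the high doses as well, though the mitochondrial share with EESF overlapped that of vehicle B. The 12 markers of other cell types summed to 6348, 6292 and 6077 CPM in vehicle A, 5635, 5340 and 5419 with WESF at 500 µg/mL, 6352, 6280 and 6036 in vehicle B and 5675, 5781 and 5919 with EESF at 310 µg/mL. Of those tested, 3 of 9 were higher and 6 lower with WESF, and 1 of 8 was higher and 5 lower with EESF, with COL1A1 the most abundant in each group. The 9 include RBFOX3, a neuronal marker called higher, which passed the filter on low counts only in comparisons that hold the high dose of WESF. The 12 astrocyte and progenitor markers summed to 7900, 8003 and 8047 CPM in vehicle A and 6916, 6657 and 6721 CPM with WESF. They summed to 8039, 8186 and 8223 CPM in vehicle B and 7450, 7681 and 7648 CPM with EESF. VIM was the most abundant of them in each group, and 5 of the 6 tested fell with each extract. The share of mitochondrially encoded counts was 10.3, 10.4 and 10.6% in vehicle A and 9.60, 7.79 and 8.55% with WESF. It was 11.6, 11.8 and 11.9% in vehicle B and 11.96, 11.2 and 11.4% with EESF. At the medium doses this share was 10.05, 8.73 and 8.96% with WESF and 11.5, 13.3 and 14.1% with EESF. At the low doses it was 11.4, 10.1 and 8.50% with WESF and 11.66, 12.26 and 11.75% with EESF. The part of these measures in the changes of the members was not tested.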

How the data were processed

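The authors trimmed the reads with Trim Galore 0.6.6, aligned them with STAR 2.7.9a to GRCh38, which the methods write as GRCh38 (hg19), and deposited RSEM 1.3.3 expected counts per gene without normalization. FastQC 0.11.9 was used for read quality. A read that fits more than 1 gene is shared out by RSEM, which leaves 10.9% of the entries as fractions. For 9 members (HMGCS1, FDPS, CYP51A1, HSD17B7, ACAT2, SREBF2, ACLY, FADS1 and FADS2) over 90% of the entries are fractions, and 9 members overlap another protein-coding gene (MVK, CYP51A1, TM7SF2, ACAT2, SREBF1, ACACA, ACSS2, FADS1 and FADS2). The library kit keeps the strand, but the strand setting of the counting is not given in the sources used here, so their counts are less certain.

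Expected counts were then rounded. Genes that GENCODE release 44 lists as protein-coding and that edgeR's filterByExpr retained were tested. A comparison of 2 groups used its 6 libraries, and the difference between extracts used 12, in edgeR 4.0.16 in R 4.3.3 (TMM, quasi-likelihood F test, 2-sided), with Benjamini-Hochberg adjustment over all genes tested. Calls were made at 0.05, with a fold change of 1.5 where stated; SE is the log2 fold change divided by the root of F. The study's methods use DESeq2, and DESeq2 1.42.0 was an alternative. CPM values put all 24 libraries on 1 TMM scale of 13516 genes. Replicates differed beyond sampling noise (chi-square per degree of freedom 1.995 to 12.78). The code was tested on simulated data.

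The members and all lists were chosen with earlier results of these data known. One marker of the other cell types is not reported here by name. Values per library are given for the 17 members called at a fold change over 1.5 at either high dose or called in the difference between extracts. Of each other list, at most the 3 largest rises and falls at that fold change are named, and promoters are printed for members of the 17 that hold an SRE match. Replicate numbers were shared between groups. In the comparisons with extracts the deviations of libraries with the same number correlated between -0.26 and 0.12, so those numbers were not taken as pairs. Between the vehicles of the 2 batches the correlations were 0.36, 0.16 and 0.26, all over 0.1. The main fits did not pair these vehicles, so the p-values given for the vehicles and for the differences leave such pairing out. The vehicles were paired by number only in alternative fits, a choice that comes from the data and not from the labels.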

Additional observations from a re-analysis of the deposited data

Results flagged for a closer look

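At the high doses, 14 members differed between the extracts by the test of the difference itself (response to EESF minus response to WESF on the log2 scale, edgeR, p-values adjusted over all 13376 genes), and each is given here with the number of libraries that show it. Extract and batch cannot be told apart, the doses differ in amount and in toxicity by the paper's screen, and the cause was not tested.

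For INSIG1, STARD4 and SCD, all 3 WESF libraries lay above and all 3 EESF libraries below the vehicle of their batch, and the differences were -0.53 (adjusted p = 1.10e-04), -0.71 (1.10e-04) and -0.60 (2.58e-04). For IDI1, MSMO1 and INSIG2, all 3 WESF libraries lay above vehicle A while the EESF libraries overlapped vehicle B, and the differences were -0.56 (2.82e-04), -0.58 (5.87e-05) and -0.64 (0.00300). For HMGCS1 and SREBF2 it was the EESF libraries that lay apart, below vehicle B in 3 of 3, with differences of -0.45 (0.00126) and -0.20 (0.0424). SQLE and FDFT1 lay above vehicle in 3 of 3 libraries of both extracts and less far with EESF, with differences of -0.59 (1.06e-04) and -0.39 (7.93e-04). LSS, SREBF1 and FADS1 lay below vehicle in 3 of 3 libraries of both extracts and less far with EESF, with differences of 0.24 (0.0231), 0.32 (0.00694) and 0.23 (0.0344). ACSS2 lay above vehicle in 3 of 3 libraries of both and further with EESF, by 0.23 (0.0170). The differences of LSS, SREBF2, FADS1 and ACSS2 were lost in 7, 10, 10 and 2 of 20 alternatives, and with the low doses in place of the vehicles, which is not among the 20, those of SREBF1 (adjusted p = 0.0846) and ACSS2 (0.331) were lost.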

How the results depend on the processing

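No called member changed direction under any alternative run; members not called were not followed. At the high doses the counts with WESF (10 higher, 11 lower) were 10 to 11 and 11 when single libraries were left out, those with EESF (4 and 16) were 3 to 4 and 14 to 16, and those of the difference (4 and 10) were 1 to 4 and 9 to 13. With the replicate block, 1 member instead of 4 was higher in the difference (LSS, ACSS2 and FADS1 were lost), and SREBF2 was lost among the lower. With EESF at the high dose the block lost SQLE (adjusted p = 0.0628) and SREBF2 (0.0649). With WESF at the medium dose the 5 lower members were 2 with the replicate block, 2 with the low dose as reference and 1 to 6 when single libraries were left out. With EESF at the medium dose the 7 were 2 with the low dose as reference and 3 to 8 when single libraries were left out. With EESF at the low dose 0 higher became 1 without a filter, with thinned counts and with the replicate block, and ranged from 0 to 2 when single libraries were left out, and the 2 lower ranged from 0 to 3. In the difference at the medium doses 0 lower became 1 with DESeq2, 1 with the replicate block of the vehicles (added after seeing the data) and 0 to 1 when single libraries were left out. With the low doses in place of the vehicles the high dose counts were 13 and 11 with WESF, 5 and 16 with EESF, and 3 and 11 in the difference, the last added after seeing the data. Blocking the paired vehicles changed no other count, and vehicle B against vehicle A stayed at 0 with that block. No scaling moved the median of all genes by 0.1 or more. Members at the lowest levels, TM7SF2, HSD17B7 and INSIG2, are the ones whose error the depth limits most.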
